A study of Bos taurus with 6 samples.

Results

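The Wnt signalling genes of bovine mammary epithelial cells (bMECs) are described here in cells with and without the enzyme gene ACADSB. The members were found by name in the deposited expression table. They comprise the WNT, FZD (frizzled), SFRP, DKK, RSPO, LGR, AXIN, DVL and TCF/LEF families together with CTNNB1, APC, LRP6, PORCN, WIF1, ROR1, RYK, RNF43 and ZNRF3, and number 61 of the 32774 genes in that table. By role there were 18 ligands, 13 receptors and co-receptors, 10 genes for secreted inhibitors or ligand processing, 9 genes of the R-spondin branch, 7 cytoplasmic relay genes and 4 TCF/LEF factors. The symbols of all 61 were found in the RefSeq cattle gene table.

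Wnt proteins are secreted, lipid-modified ligands that bind frizzled receptors, alone or together with the co-receptor LRP6. In the beta-catenin branch, binding stops a complex built on AXIN and APC from destroying beta-catenin, the product of CTNNB1, which then acts in the nucleus with TCF/LEF factors. Other branches work without beta-catenin and guide cell polarity and movement. In the mammary gland of mice, Wnt signals are known for their part in placode formation, ductal side-branching and the upkeep of basal cells.

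RNA was sequenced from 3 libraries of ACADSB-/- bMECs and 3 libraries of WT bMECs, and the records also call the WT cells controls or negative controls. The bMECs came from mammary tissue of a Chinese Holstein dairy cow in lactation. The ACADSB-/- cells had been transfected with a plasmid carrying Cas9, a green fluorescent protein and a guide RNA to ACADSB, sorted for fluorescence and grown from single cells. The WT cells were the bMECs without the knockout, and no source used here states that they were sorted or grown from single cells. The methods describe growth from 1 sorted cell, whereas the series text can be read as 3 knockout lines, so the loss of ACADSB and the history of a clone cannot be told apart. Nothing states that the libraries came from separate cultures. The p-values below therefore set the difference between the groups only against the scatter of libraries within a group, and that scatter may be technical.

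The libraries held 30550275 to 34983965 counts in 15693 genes. ACADSB, the edited gene, had 9, 7 and 15 counts in ACADSB-/- libraries, against 38, 34 and 20 in WT libraries (log2 fold change -1.60, SE 0.46, adjusted p = 0.00357 by edgeR's quasi-likelihood test). ACADSB was scarce in both groups and the groups did not overlap. It had enough counts to be tested through WT alone, so that p-value adds no support to the counts. The epithelial genes KRT8, KRT18, EPCAM and CDH1 were abundant in both groups. KRT19, another epithelial gene, was far less abundant, at 3.7 FPKM in ACADSB-/- bMECs and 3.4 FPKM in WT bMECs. The milk protein genes CSN1S1, CSN2 and CSN3 and the luminal regulators ELF5 and ESR1 were listed at 0 FPKM in every library. LALBA, another milk protein gene, averaged 0 FPKM in ACADSB-/- bMECs and 0.014 FPKM in WT bMECs, and the prolactin receptor gene PRLR averaged 0.020 FPKM in ACADSB-/- bMECs and 0.0045 FPKM in WT bMECs. FPKM are read fragments scaled by the length of the gene model and by the depth of the library, and genes are compared with each other on this scale.

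Several marker lists differed between the groups, and their part in the Wnt results below was not tested. Summed keratinocyte markers (6 genes, with KRT1, LOR and FLG at 0) reached 606.6 to 633.6 CPM (counts scaled to the depth of the library) in ACADSB-/- libraries, against 57.4 to 66.5 CPM in WT libraries, through TCHH and IVL. Of that list, KRT10 was lower (17, 8 and 15 counts in ACADSB-/- libraries, against 31, 48 and 33 in WT libraries). Luminal markers (12 genes, 5 tested, 2 higher and 2 lower) summed to 4904 to 5408 CPM in ACADSB-/- libraries and 6351 to 6695 CPM in WT libraries. KRT8 and KRT18, which make up most of that sum, were lower (log2 fold changes -0.19 and -0.56), and EPCAM and CDH1 were higher (0.60 and 0.42). Basal markers (8 genes, with OXTR at 0, 5 tested, 2 higher and 2 lower) summed to 3951 to 4250 CPM in ACADSB-/- libraries and 3655 to 3870 CPM in WT libraries, almost all of it KRT5. KRT5 and ACTA2 were higher (log2 fold changes 0.16 and 0.73), and KRT14 and KRT17 were lower (-0.92 and -2.99). Fibroblast markers (10 genes, 5 tested) summed to 1288 to 1325 CPM in ACADSB-/- libraries and 1106 to 1171 CPM in WT libraries. Most of that sum was DCN, which was higher (log2 fold change 0.21). COL3A1 was lower (-1.17), and the other 3 tested did not pass. Endothelial, immune and adipocyte markers summed to less than 6 CPM in every library. Of 3 endothelial markers tested, VWF was higher (log2 fold change 1.11), TEK did not pass and PECAM1 was lower. PECAM1 had 1, 1 and 0 counts in ACADSB-/- libraries, against 30, 42 and 52 in WT libraries. Of 2 adipocyte markers tested, CIDEC was lower (-1.22) and PLIN1 did not pass. Adipocyte sums were 1.73 to 2.83 CPM in ACADSB-/- libraries and 3.38 to 3.68 CPM in WT libraries. In bulk RNA, fewer cells of a type and less RNA per cell cannot be told apart.

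Of 18 ligands, 7 were tested, of which 5 were lower in ACADSB-/- bMECs (71.4%, beside 28.6% of all tested genes) and 2 did not pass. The 3 tested genes for secreted inhibitors or ligand processing, of 10, were all lower (100%, beside 28.6%), and the receptors moved both ways. Of the 61 members, 37 had enough counts to be tested. At an adjusted p under 0.05, 8 were higher and 15 were lower in ACADSB-/- bMECs, and 14 did not pass. These 23 members are 62.2% of those tested, beside 58.2% of all 13720 tested genes. The higher members made up 21.6%, beside 29.7% of all genes, and the lower members made up 40.5%, beside 28.6%. With a threshold of 2-fold added, 7 members were called, or 18.9% beside 10.2% of all genes. FZD10 was the 1 called higher (2.7% of members, beside 5.3% of all genes). WNT3A, WNT5B, FZD1, FZD8, DKK1 and DKK3 were called lower (16.2% of members, beside 4.92%). The 2 groups of libraries did not overlap for 25 of the 37 tested members, or 67.6% beside 63.6% of all genes. The median log2 fold change of the tested members was -0.20, against 0 for all genes, and the median size of change was 0.59, against 0.31. Some members, such as WNT3A, passed the filter through WT alone, which favours a lower level in ACADSB-/- bMECs. These shares therefore describe the members and are no evidence about them as a group.

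**Figure D1:**
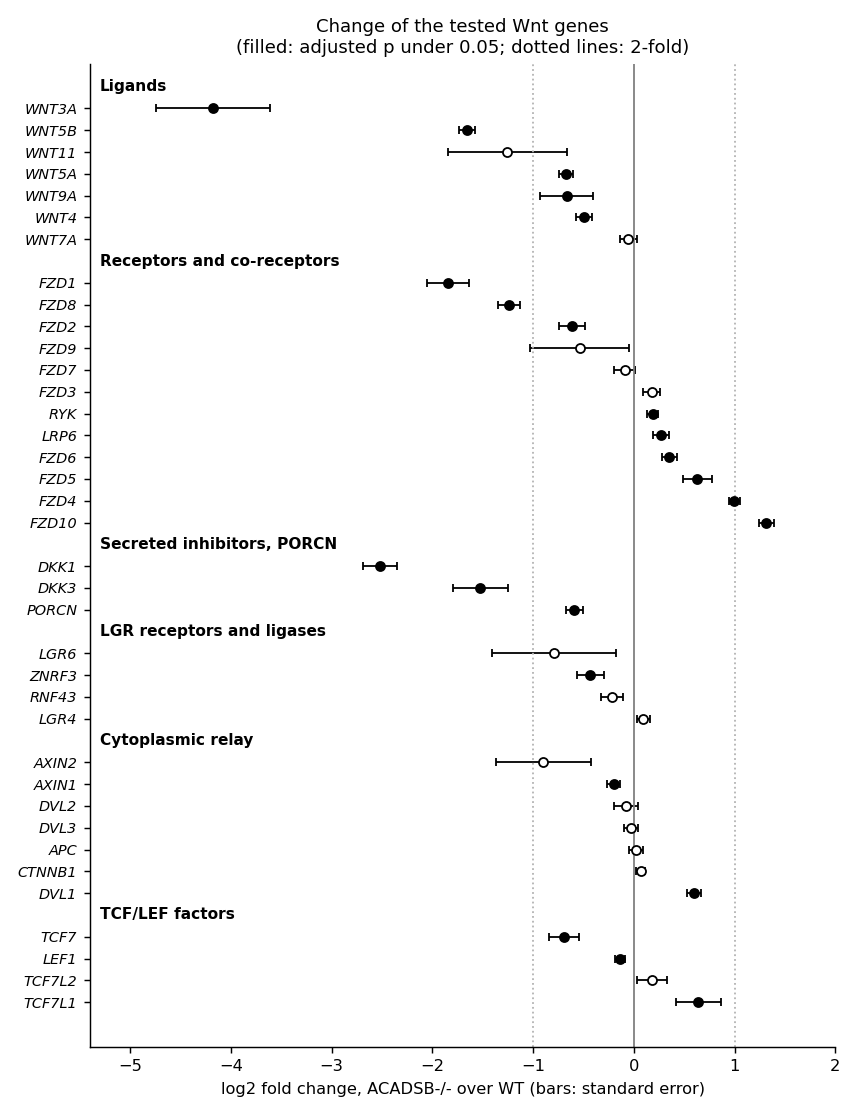
Log2 fold change of the 37 tested Wnt genes, ACADSB-/- over WT, by role on the vertical axis. Points are edgeR estimates with a standard error derived from the test statistic, filled where the adjusted p was under 0.05. Dotted lines mark 2-fold. FZD10 lies right of the upper line, and WNT3A, WNT5B, FZD1, FZD8, DKK1 and DKK3 lie left of the lower line with filled points.

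WNT5A, WNT5B, WNT7A and WNT4 carried most of the Wnt ligand RNA of these cells. WNT5B and WNT5A, related ligands best known for signalling without beta-catenin, were both lower in ACADSB-/- bMECs. WNT5B had 499, 486 and 541 counts in ACADSB-/- libraries, against 1672, 1477 and 1511 in WT libraries. Every ACADSB-/- library was far below every WT library. WNT5B averaged 13.1 ± 1.3 FPKM in ACADSB-/- bMECs and 40.2 ± 1.2 FPKM in WT bMECs (SD, n = 3 each). By edgeR the log2 fold change was -1.66 (SE 0.082, adjusted p = 8.82e-17). The gene lies on chromosome 5 at 108944204 to 108956465 in the deposited table, whose genome build no source used here names.

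WNT5A fell by a smaller factor. It averaged 27.3 ± 1.5 FPKM in ACADSB-/- bMECs and 42.6 ± 3.8 FPKM in WT bMECs (SD, n = 3 each), with a log2 fold change of -0.68 (SE 0.069, adjusted p = 1.13e-09 by edgeR). There was no overlap, with 1341 to 1639 counts in ACADSB-/- libraries and 2022 to 2623 in WT libraries. WNT4, a ligand needed for progesterone-driven side-branching of the mouse mammary gland, had 887, 777 and 775 counts in ACADSB-/- libraries, against 1207, 969 and 1144 in WT libraries. It was lower in each ACADSB-/- library than in any WT library (log2 fold change -0.49, adjusted p = 5.44e-06 by edgeR). WNT7A, a ligand made by many epithelia, averaged 25.8 ± 0.48 FPKM in ACADSB-/- bMECs and 26.1 ± 2.7 FPKM in WT bMECs. Its counts overlapped (821 to 936 in ACADSB-/- libraries, 740 to 964 in WT libraries), and its log2 fold change of -0.05 (SE 0.086) did not pass (adjusted p = 0.621 by edgeR).

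WNT3A, the ligand most used to switch on the beta-catenin branch in culture, was close to undetected in ACADSB-/- bMECs. It had 8, 0 and 1 counts in ACADSB-/- libraries, against 65, 57 and 41 in WT libraries. The highest ACADSB-/- library was below the lowest WT library. Summed and scaled for depth, 9 counts in ACADSB-/- libraries against 163 in WT libraries make WNT3A 18.8 times higher in WT (95% exact interval 9.64 to 41.8, which covers counting error only). The edgeR log2 fold change was -4.18 (SE 0.57, adjusted p = 2.67e-07), and -6.43 without ACADSB-/- replicate 1, which held 8 of the 9 counts. As WNT3A met the filter through WT alone, that p-value adds no support to the counts. Even in WT bMECs its level was low, at 1.08 ± 0.23 FPKM, against 0.055 ± 0.078 FPKM in ACADSB-/- bMECs (SD, n = 3 each). Without a fit to counts, the change was -0.97 on log2(FPKM + 1), where the pseudocount is close to the WT level, and -3.02 on log2(FPKM + 0.1).

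WNT3A and WNT9A are neighbours on chromosome 7, at 2971539 to 3042138 and 3066489 to 3098817 on opposite strands, 24.4 kb apart. WNT9A had 35, 71 and 67 counts in ACADSB-/- libraries, against 106, 90 and 73 in WT libraries. In counts and CPM all WT libraries were above all ACADSB-/- libraries by a narrow margin, whereas in FPKM the groups overlapped (0.220 to 0.511 in ACADSB-/- libraries, 0.506 to 0.703 in WT libraries). Its log2 fold change of -0.67 (SE 0.27) passed narrowly (adjusted p = 0.0328 by edgeR). It no longer passed without ACADSB-/- replicate 1 (adjusted p = 0.24), without WT replicate 1 (0.0891) or without WT replicate 2 (0.0665). The other 3 pairs of neighbouring ligand genes, WNT6 with WNT10A, WNT1 with WNT10B, and WNT9B with WNT3, had at most 11 counts in any library.

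WNT11, known for roles in cell movement, had 11, 3 and 12 counts in ACADSB-/- libraries, against 19, 35 and 6 in WT libraries. The groups overlapped, and its log2 fold change of -1.26 (SE 0.59) did not pass (adjusted p = 0.0691 by edgeR), although it did without WT replicate 3 (log2 fold change -1.69, adjusted p = 0.0153). Without WT replicate 2 the change of WNT11 was -0.56 (adjusted p = 0.512). WNT6 had 0, 0 and 9 counts in ACADSB-/- libraries, against 11, 1 and 3 in WT libraries, too few to be tested. The remaining 10 ligands, WNT1, WNT2, WNT2B, WNT3, WNT8A, WNT8B, WNT9B, WNT10A, WNT10B and WNT16, had at most 3 reads in any library.

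Summed over the 18 ligands, Wnt ligand RNA was 71.6 to 76.9 FPKM in ACADSB-/- libraries and 112.2 to 127.6 FPKM in WT libraries. The makeup of that sum differed as well. WNT5B held 16.4 to 18.7% of it in ACADSB-/- libraries and 32.5 to 35.4% in WT libraries. WNT7A, with nearly equal FPKM in both groups, held 34.3 to 35.7% in ACADSB-/- libraries and 20.5 to 23.0% in WT libraries. The share of WNT5A overlapped between the groups (35.9 to 38.3% in ACADSB-/- libraries, 34.6 to 36.4% in WT libraries). In ACADSB-/- bMECs the order of the leading ligands was WNT5A, WNT7A, WNT5B and WNT4, with WNT5A (25.7 to 28.8 FPKM) and WNT7A (25.5 to 26.4 FPKM) overlapping. In WT bMECs it was WNT5A, WNT5B, WNT7A and WNT4, with 42.6 ± 3.8 FPKM for WNT5A and 40.2 ± 1.2 FPKM for WNT5B lying within their spread.

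**Figure D2:**
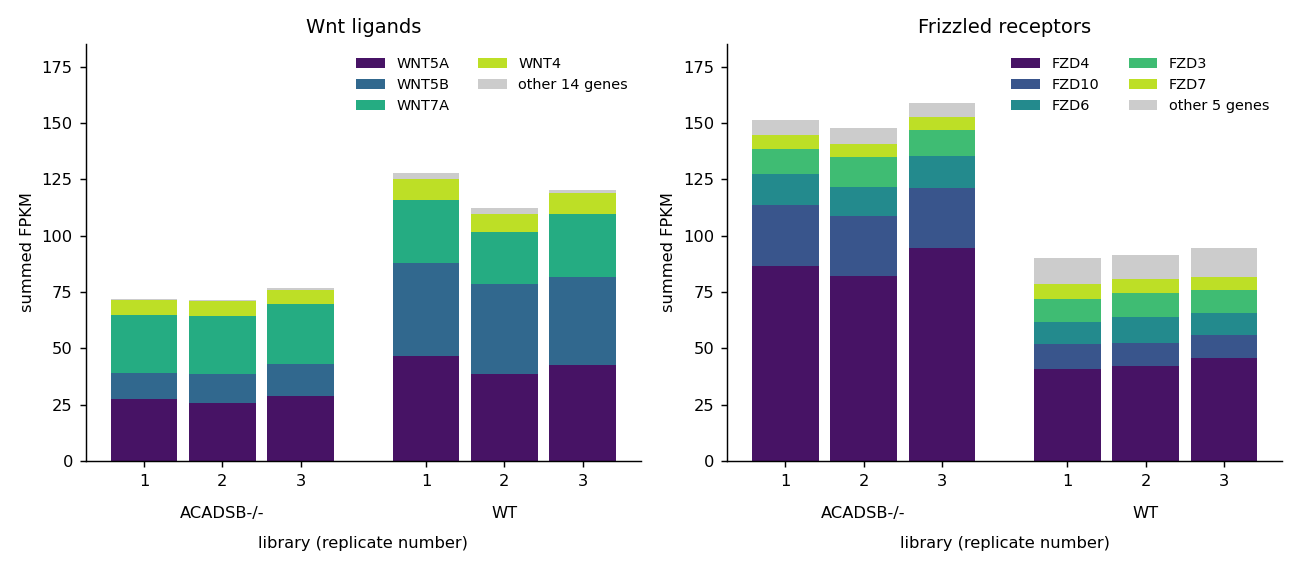
Summed FPKM of the Wnt ligands (left panel) and frizzled receptors (right panel) in each library, ACADSB-/- libraries left of WT libraries, stacked by gene. The ligand bars reach 71.6 to 76.9 FPKM in ACADSB-/- libraries and 112.2 to 127.6 FPKM in WT libraries, while the frizzled bars reach 147.5 to 159.0 FPKM in ACADSB-/- libraries and 90.3 to 94.4 FPKM in WT libraries.

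Receptor RNA moved the other way in sum, through FZD4 and FZD10. The 10 frizzled genes summed to 147.5 to 159.0 FPKM in ACADSB-/- libraries and 90.3 to 94.4 FPKM in WT libraries. Of the 12 receptors and co-receptors tested, 6 were higher (50%, beside 29.7% of all genes), 3 were lower (25%, beside 28.6%) and 3 did not pass.

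FZD10, a frizzled linked in culture to the beta-catenin branch, had 1858, 1601 and 1627 counts in ACADSB-/- libraries, against 737, 616 and 624 in WT libraries. Every ACADSB-/- library was far above every WT library. FZD10 averaged 26.9 ± 0.20 FPKM in ACADSB-/- bMECs and 10.6 ± 0.69 FPKM in WT bMECs (SD, n = 3 each). Its log2 fold change was 1.31 (SE 0.075, adjusted p = 2.75e-15 by edgeR), and the gene lies on chromosome 17 at 48064408 to 48066366.

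FZD4, the frizzled that also binds the non-Wnt ligand norrin, was the most abundant receptor in both groups. It had 8150, 6736 and 7858 counts in ACADSB-/- libraries, against 3621, 3451 and 3910 in WT libraries. The groups were far apart. FZD4 averaged 87.7 ± 6.2 FPKM in ACADSB-/- bMECs and 42.9 ± 2.7 FPKM in WT bMECs (SD, n = 3 each). Its log2 fold change of 0.998 (SE 0.057, adjusted p = 3.33e-15 by edgeR) lay just short of the 2-fold threshold, and over 13 alternative settings it ran between 0.95 and 1.05. FZD4 lies on chromosome 29 at 8725524 to 8730371. It held 55.6 to 59.3% of frizzled RNA in ACADSB-/- libraries and 45.0 to 48.6% in WT libraries.

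FZD1 and FZD8, both able to signal with LRP6, were called lower. FZD1 had 51, 38 and 50 counts in ACADSB-/- libraries, against 159, 147 and 177 in WT libraries, or 0.346 ± 0.045 FPKM in ACADSB-/- bMECs and 1.22 ± 0.11 FPKM in WT bMECs (SD, n = 3 each). The log2 fold change of FZD1 was -1.85 (SE 0.21, adjusted p = 6.48e-09 by edgeR). FZD8 had 324, 279 and 257 counts in ACADSB-/- libraries, against 701, 571 and 692 in WT libraries, or 2.81 ± 0.17 FPKM in ACADSB-/- bMECs and 6.49 ± 0.52 FPKM in WT bMECs (SD, n = 3 each). That of FZD8 was -1.24 (SE 0.11, adjusted p = 3.63e-11 by edgeR). For both genes the highest ACADSB-/- library was below the lowest WT library. Both were minor receptors next to FZD4. FZD1 lies on chromosome 4 at 8549481 to 8553635, and FZD8 on chromosome 13 at 27150650 to 27153823.

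The other frizzled receptors changed less. FZD5 (log2 fold change 0.63, adjusted p = 0.000427 by edgeR) and FZD6 (0.35, adjusted p = 0.000109 by edgeR) were higher, and FZD2 was lower (-0.61, adjusted p = 0.000219 by edgeR). FZD7, a frizzled reported in mammary stem-like cells, had 387 to 484 counts in ACADSB-/- libraries and 413 to 480 in WT libraries, and did not pass (adjusted p = 0.48 by edgeR). FZD9 had 10 to 15 counts in ACADSB-/- libraries and 11 to 22 in WT libraries and did not pass (adjusted p = 0.36 by edgeR). FZD3 had a log2 fold change of 0.18 (adjusted p = 0.0657 by edgeR), with overlapping groups, and passed without ACADSB-/- replicate 1 (adjusted p = 0.0332).

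LRP6 and RYK rose slightly. LRP6, the co-receptor, averaged 3.55 FPKM in ACADSB-/- bMECs and 2.87 FPKM in WT bMECs (log2 fold change 0.27, adjusted p = 0.00605 by edgeR), but did not pass without ACADSB-/- replicate 1 (adjusted p = 0.0691). RYK, a kinase-like Wnt receptor, averaged 42.2 FPKM in ACADSB-/- bMECs and 36.2 FPKM in WT bMECs (log2 fold change 0.19, adjusted p = 0.00499 by edgeR), and did not pass without WT replicate 1 (adjusted p = 0.0568). ROR1, a receptor kinase for WNT5A, had 0, 4 and 0 counts in ACADSB-/- libraries, against 7, 16 and 6 in WT libraries. These were too few for the filter. Scaled for depth the ratio of WT to ACADSB-/- was 7.51 (95% exact interval 2.64 to 29.4, counting error only). With no filter on low counts ROR1 was called lower.

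**Figure D3:**
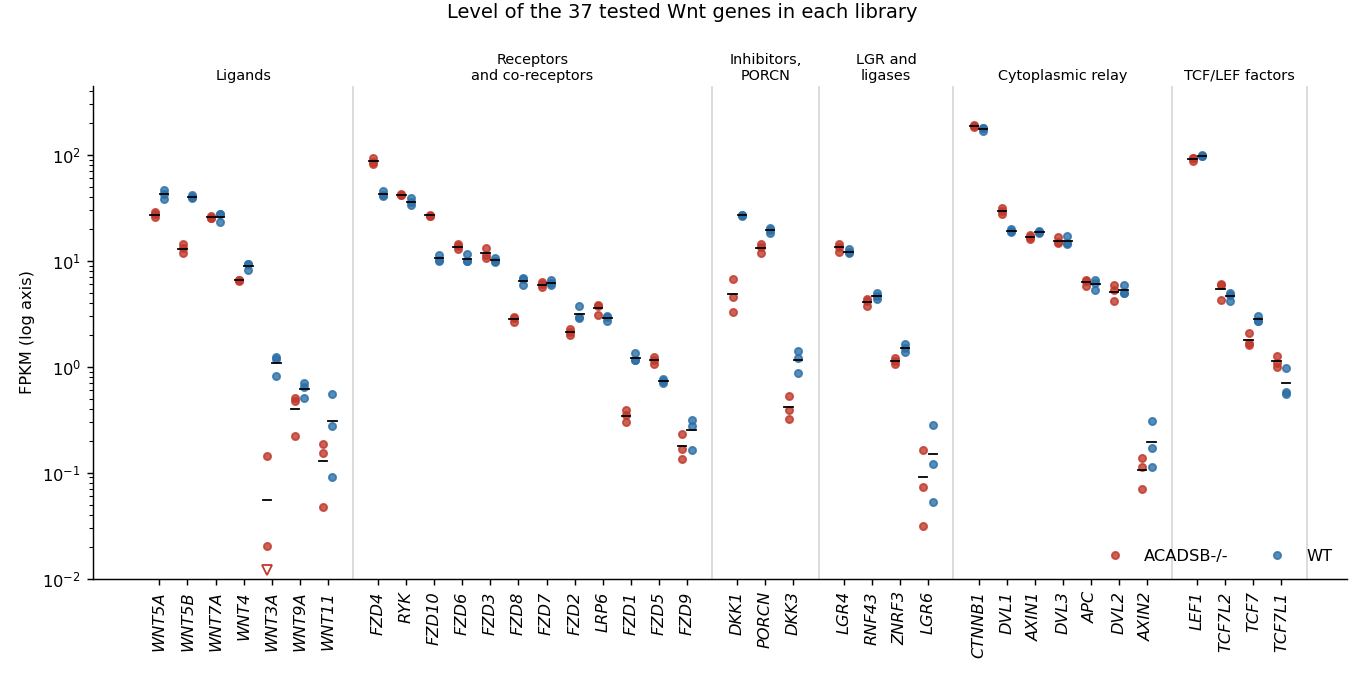
FPKM (log axis) of the 37 tested Wnt genes in each library, grouped by role and ordered within a role by the WT mean, ACADSB-/- left of WT. Points are libraries, bars are means over 3 libraries, and the open triangle marks the WNT3A library at 0; WNT5B, WNT3A, FZD1, FZD8, DKK1 and DKK3 show ACADSB-/- points clear below WT points, and FZD4 and FZD10 show them clear above.

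Among the secreted inhibitors, DKK1 stood out by its level and its change. DKK1 protein binds LRP6 and blocks the beta-catenin branch, and its gene is itself raised by that branch in several tissues. It had 151, 96 and 199 counts in ACADSB-/- libraries, against 865, 799 and 809 in WT libraries. The WT libraries were close together and the ACADSB-/- libraries were more scattered, but the groups were far apart. DKK1 averaged 4.85 ± 1.7 FPKM in ACADSB-/- bMECs and 27.2 ± 0.36 FPKM in WT bMECs (SD, n = 3 each). The edgeR log2 fold change was -2.52 (SE 0.17, adjusted p = 2.84e-09), a level 5.74 times lower in ACADSB-/- bMECs. The gene lies on chromosome 26 at 6910257 to 6912707.

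DKK3, a divergent member of the same family, had 29, 42 and 31 counts in ACADSB-/- libraries, against 103, 68 and 115 in WT libraries. The groups did not overlap. It averaged 0.415 ± 0.11 FPKM in ACADSB-/- bMECs and 1.16 ± 0.28 FPKM in WT bMECs (SD, n = 3 each), with a log2 fold change of -1.52 (SE 0.28, adjusted p = 2.27e-05 by edgeR). It lies on chromosome 15 at 41430362 to 41480832. SFRP1, a secreted frizzled-like decoy, had 2, 2 and 4 counts in ACADSB-/- libraries, against 0, 0 and 12 in WT libraries, too few to be tested. DKK2, DKK4, SFRP2, SFRP4, SFRP5 and the Wnt-binding inhibitor WIF1 had at most 3 reads in any library. The secreted inhibitors therefore summed to 3.86 to 7.16 FPKM in ACADSB-/- libraries and 28.3 to 28.6 FPKM in WT libraries, with DKK1 holding 85.3 to 93.9% in ACADSB-/- libraries and 94.5 to 96.8% in WT libraries.

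PORCN, the enzyme that attaches the lipid that Wnt ligands need for secretion, was also lower. It averaged 13.3 ± 1.2 FPKM in ACADSB-/- bMECs and 19.5 ± 1.0 FPKM in WT bMECs (SD, n = 3 each), with a log2 fold change of -0.59 (SE 0.084, adjusted p = 5.88e-07 by edgeR).

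In the R-spondin branch, R-spondins bind LGR receptors and keep the ligases ZNRF3 and RNF43 from removing frizzled receptors. RSPO1, RSPO2, RSPO3 and RSPO4 had at most 1 read in any library. LGR4, the one abundant LGR receptor, averaged 13.4 FPKM in ACADSB-/- bMECs and 12.3 FPKM in WT bMECs and did not pass (log2 fold change 0.10, adjusted p = 0.212 by edgeR). LGR5, a stem cell marker in several epithelia, had 1, 1 and 6 counts in ACADSB-/- libraries, against 2, 1 and 0 in WT libraries. LGR6 had 8, 3 and 16 counts in ACADSB-/- libraries, against 29, 5 and 12 in WT libraries, and its log2 fold change of -0.80 (SE 0.62) did not pass (adjusted p = 0.277 by edgeR). That value was -0.001 without WT replicate 1 and -1.52 without ACADSB-/- replicate 3. ZNRF3 was lower, with 214 to 227 counts in ACADSB-/- libraries and 253 to 330 in WT libraries (log2 fold change -0.43, adjusted p = 0.00676 by edgeR). RNF43 had a log2 fold change of -0.22 and did not pass (adjusted p = 0.0812 by edgeR), except without WT replicate 2 (adjusted p = 0.0419). Its groups did not overlap in CPM, at 11.4 to 13.0 in ACADSB-/- libraries and 13.4 to 15.5 in WT libraries.

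Of the 7 cytoplasmic relay genes tested, 1 was higher, 1 was lower and 5 did not pass (28.6% past, beside 58.2% of all genes). CTNNB1 was the most abundant of the 61 members, at 188.8 ± 3.6 FPKM in ACADSB-/- bMECs and 175.8 ± 6.0 FPKM in WT bMECs (SD, n = 3 each). Its log2 fold change of 0.07 (SE 0.045) did not pass by edgeR (adjusted p = 0.194). In CPM the groups did not overlap, at 612.1 to 624.4 in ACADSB-/- libraries and 572.4 to 600.1 in WT libraries. APC (log2 fold change 0.02, SE 0.071), DVL2 (-0.08, SE 0.12) and DVL3 (-0.03, SE 0.068) did not pass either, and their direction turned in some alternative fits. DVL1, which carries the signal from frizzled receptors, was higher. It averaged 29.7 ± 1.7 FPKM in ACADSB-/- bMECs and 19.2 ± 0.57 FPKM in WT bMECs (SD, n = 3 each), with a log2 fold change of 0.60 (SE 0.072, adjusted p = 2.61e-08 by edgeR). AXIN1, the scaffold of the destruction complex, was slightly lower (-0.20, adjusted p = 0.00853 by edgeR), but did not pass without ACADSB-/- replicate 1 (adjusted p = 0.0706).

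AXIN2, a widely used readout of beta-catenin activity, was scarce in both groups. It had 18, 8 and 13 counts in ACADSB-/- libraries, against 21, 13 and 36 in WT libraries. The groups overlapped, and its log2 fold change of -0.90 (SE 0.48) did not pass (adjusted p = 0.108 by edgeR).

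LEF1 made up 91.0 to 93.0% of TCF/LEF RNA in ACADSB-/- libraries and 91.8 to 93.0% in WT libraries. It averaged 91.7 ± 2.9 FPKM in ACADSB-/- bMECs and 98.7 ± 1.5 FPKM in WT bMECs (SD, n = 3 each), a small decrease (log2 fold change -0.14, adjusted p = 0.014 by edgeR). The decrease did not pass without ACADSB-/- replicate 1 (adjusted p = 0.113). TCF7 was lower, with 162, 148 and 184 counts in ACADSB-/- libraries, against 287, 238 and 248 in WT libraries (log2 fold change -0.69, SE 0.15, adjusted p = 0.00017 by edgeR). TCF7L1, the family member best known as a repressor, had 116, 111 and 131 counts in ACADSB-/- libraries, against 106, 59 and 58 in WT libraries. The log2 fold change of 0.64 (SE 0.22) passed (adjusted p = 0.0137 by edgeR), with WT replicate 1 close to the ACADSB-/- libraries. It did not pass without ACADSB-/- replicate 3 (adjusted p = 0.0741), WT replicate 2 (0.0665) or WT replicate 3 (0.0847). TCF7L2 did not pass (log2 fold change 0.18, adjusted p = 0.293 by edgeR).

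The other genes of the pathway were read from 2 lists of partners, of which 42 of 59 were tested. At an adjusted p under 0.05, 13 were higher and 14 lower, or 64.3% beside the 58.2% of all genes. Of the 16 tested genes for secretion, the cell surface and planar cell polarity, 4 were higher, 8 were lower and 4 did not pass (75% past, beside 58.2% of all genes), and 7 were called at 2-fold (43.8%, beside 10.2%). Of the 26 tested genes of the destruction complex and its nuclear partners, 9 were higher, 6 were lower and 11 did not pass (57.7% past, beside 58.2%), and 1 was called at 2-fold (3.85%, beside 10.2%). ROR2, DAAM2, PRICKLE2 and APCDD1 of the first list, and EPHB2 of the target list below, had enough counts for the filter in WT alone. That favours a lower level in ACADSB-/- bMECs.

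ROR2, a receptor for WNT5A, had 0 counts in each ACADSB-/- library, against 52, 38 and 37 in WT libraries. Set against a floor of 3 counts per library, ROR2 was at least 14.6-fold lower in ACADSB-/- bMECs. DAAM2, an actin regulator that works with DVL, also had 0 counts in each ACADSB-/- library, against 20, 11 and 17 in WT libraries, and was at least 5.52-fold lower on the same floor. Both ROR2 (adjusted p = 1.03e-08) and DAAM2 (adjusted p = 2.01e-05) passed edgeR's test, but they met the filter through WT alone. For such genes, PRICKLE2 included, the counts describe the difference and the test adds no support. PRICKLE2, a cytoplasmic polarity protein, had 4, 0 and 0 counts in ACADSB-/- libraries, against 17, 23 and 12 in WT libraries (adjusted p = 0.000311 by edgeR). Its ratio of WT to ACADSB-/- was 13.5 (95% exact interval 4.96 to 51.3, counting error only). Without ACADSB-/- replicate 1, PRICKLE2 was at 0 in the ACADSB-/- libraries left.

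PTK7, PRICKLE1 and CELSR2 were more abundant. PTK7, a kinase-like co-receptor of the polarity branch, had 1727, 1574 and 1588 counts in ACADSB-/- libraries, against 4680, 4012 and 4510 in WT libraries (log2 fold change -1.48, SE 0.058, adjusted p = 1.73e-19 by edgeR). PRICKLE1 was lower too, with 899 to 1050 counts in ACADSB-/- libraries and 1979 to 2239 in WT libraries (-1.11, SE 0.070, adjusted p = 2.37e-14 by edgeR). CELSR2, an atypical cadherin of the same branch, was higher, with 741 to 826 counts in ACADSB-/- libraries and 297 to 363 in WT libraries (1.26, SE 0.10, adjusted p = 1.31e-11 by edgeR). For these 3 genes the groups did not overlap. TLE2, a co-repressor that binds TCF factors, was the nuclear partner called, with 1521, 1491 and 1392 counts in ACADSB-/- libraries, against 472, 481 and 488 in WT libraries (1.56, SE 0.083, adjusted p = 4.5e-16 by edgeR).

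**Figure D4:**
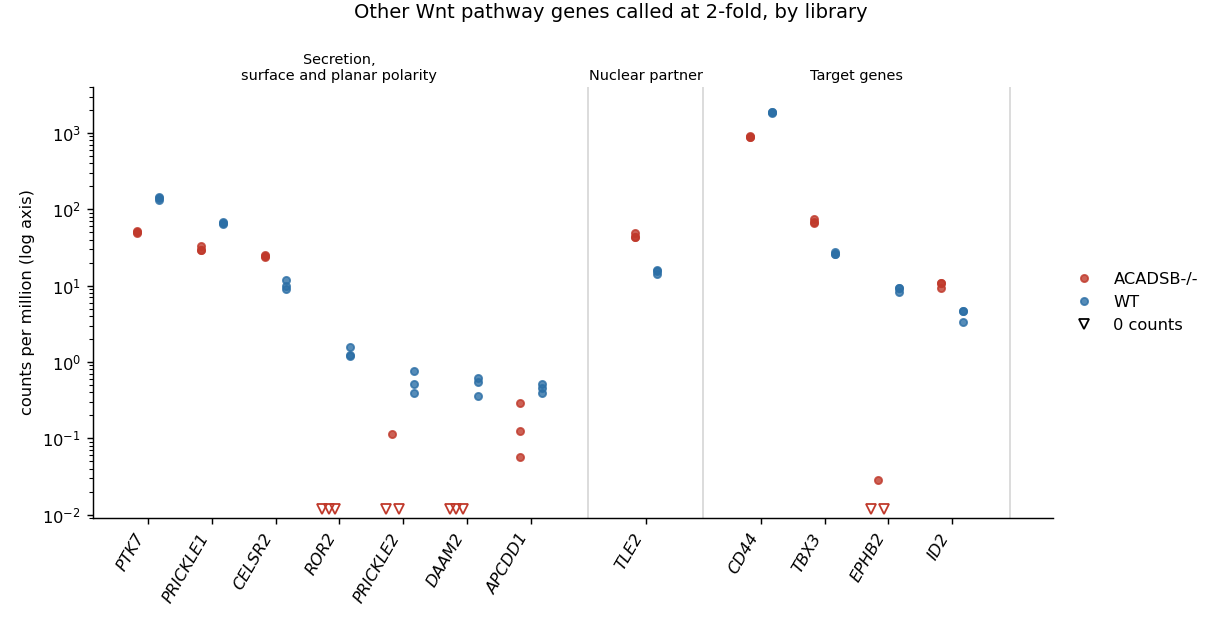
CPM (log axis) in each library for the 12 other Wnt pathway genes called at 2-fold, ACADSB-/- left of WT, with libraries at 0 counts drawn as open triangles. Levels compare within a gene; ROR2 and DAAM2 sit at 0 in all 3 ACADSB-/- libraries, and CELSR2, TLE2, TBX3 and ID2 lie higher in ACADSB-/- libraries.

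Genes known as Wnt targets in at least some tissues did not move in 1 direction. Of 29 listed, 15 were tested, of which 1 did not pass, or 93.3% past the test beside 58.2% of all genes. The 5 higher made up 33.3%, beside 29.7% of all genes, and the 9 lower made up 60%, beside 28.6%. At 2-fold, 2 were called higher and 3 lower, or 33.3% together beside 10.2% of all genes. CD44 had been seen in the study's account of these libraries when it was listed, so it is not independent evidence. EPHB2, a receptor for ephrins, had 1, 0 and 0 counts in ACADSB-/- libraries, against 301, 249 and 289 in WT libraries. Scaled for depth, the ratio of WT to ACADSB-/- was 869 (95% exact interval 155.5 to 34360, counting error only), and the adjusted p from edgeR was 1.7e-18. As EPHB2 met the filter through WT alone, that p-value adds no support to the counts. Without ACADSB-/- replicate 1, which held the 1 count, EPHB2 was at 0 in the ACADSB-/- libraries left. CD44, the hyaluronan receptor, was lower, at 446.8 ± 4.2 FPKM in ACADSB-/- bMECs and 906.2 ± 6.7 FPKM in WT bMECs (SD, n = 3 each; log2 fold change -1.05, adjusted p = 1.6e-18 by edgeR). APCDD1, a membrane inhibitor of Wnt signals that stands in both a partner list and the target list, had 2, 9 and 4 counts in ACADSB-/- libraries, against 17, 14 and 12 in WT libraries (log2 fold change -1.53, SE 0.62, adjusted p = 0.0356 by edgeR). The APCDD1 call rested on a gene that met the filter through WT alone, and it was fragile. It passed when ACADSB-/- replicate 2 was left out (adjusted p = 0.0157), and did not pass without any of the other 5 libraries: ACADSB-/- replicate 1 (0.181) or 3 (0.11), or WT replicate 1 (0.0995), 2 (0.0704) or 3 (0.0503).

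TBX3, a transcription factor needed for mammary gland formation, was higher, with 2331, 2099 and 2361 counts in ACADSB-/- libraries, against 916, 802 and 803 in WT libraries (log2 fold change 1.38, SE 0.070, adjusted p = 1.57e-16 by edgeR). ID2, an inhibitor of helix-loop-helix factors, was higher as well, with 381, 289 and 347 counts in ACADSB-/- libraries, against 109, 143 and 146 in WT libraries (1.30, SE 0.15, adjusted p = 1.62e-08 by edgeR). Neither gene's groups overlapped. MYC and CCND1, named after their values were seen, went opposite ways. MYC averaged 62.0 FPKM in ACADSB-/- bMECs and 93.8 FPKM in WT bMECs (log2 fold change -0.63, adjusted p = 9.93e-12 by edgeR), and CCND1 averaged 129.3 FPKM in ACADSB-/- bMECs and 96.9 FPKM in WT bMECs (0.38, adjusted p = 7.92e-07 by edgeR).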

How the data were processed

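Total RNA of 3 ACADSB-/- and 3 WT bMEC samples was sequenced. The authors deposited raw read counts for 15693 genes and FPKM for 32774 genes, with their gene model lengths. They aligned filtered reads to the bovine genome. The aligner, counter, genome build, annotation and use of strand are not given in these sources, and the submitters' processing notes name Bismark 0.12.5 without a role. Without strand, reads of a gene and an overlapping antisense gene cannot be told apart. In the deposited FPKM table, 3 columns of per-sample values match no sample of the series and were not used, nor were the authors' own fold changes, p-values and false discovery rates (EB-Seq).

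Counts were fitted in edgeR 4.0.16 (R 4.3.3) by the quasi-likelihood test with TMM factors (0.978 to 1.02), on the 13720 genes that passed filterByExpr (minimum count 10, minimum total 15). P-values were adjusted by Benjamini-Hochberg over all tested genes. Each standard error (SE) was the size of the log2 fold change divided by the square root of the test's F statistic. The thresholds were an adjusted p of 0.05 and 2-fold. The deposited FPKM, which scale counts by length and depth, served to compare genes. The 20 members outside the count table were read from FPKM, converted to whole reads (within 0.02). The fits were tested on simulated data.

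Every member is named. Members called at 2-fold are given in full, pathway lists by their 2-fold calls (at most 6 a list by adjusted p), and other genes are said to be chosen after their values were seen. The members and lists were chosen with earlier results of these data known. Alternatives were RLE factors, DESeq2 1.42.0, no filter, a mean of at least 50 counts, limma 3.58.1 on log2(FPKM + 1) and log2(FPKM + 0.1), a replicate block and leaving out each library. Figures were drawn with matplotlib 3.10.9. RefSeq (ARS-UCD2.0) was used for names only, and no sequences were analysed here.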

Additional observations from a re-analysis of the deposited data

How the results depend on the processing

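Over 13 alternatives, 446 of 476 values of the 37 tested members kept their direction and their side of the threshold, 18 fell short of it, 5 newly passed it and 7 turned round. Of the members called at 2-fold, WNT5B, DKK1 and FZD10 were called in each alternative. On log2(FPKM + 1) in limma, which understates low genes, 4 members were called at 2-fold instead of 7, of which 2 were lower and 2 higher, since WNT3A, FZD1, FZD8 and DKK3 fell under 2-fold and FZD4 passed it. FZD4 also made the count of higher members 2 on log2(FPKM + 0.1) and with no filter, and 1 to 2 when each library was left out. A mean of at least 50 counts left WNT3A untested.

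The members that turned round did not pass in either direction. Leaving out each library gave log2 fold changes of -0.063 to 0.084 for APC, -0.186 to 0.056 for DVL2 and -0.08 to 0.057 for DVL3, which was at 0.008 and 0.009 in the limma fits. LEF1, LRP6, WNT9A and ZNRF3 did not pass in either limma fit, whereas CTNNB1 did (adjusted p = 0.0494 and 0.0491). Among the pathway partners, PRICKLE2 did not pass on log2(FPKM + 1) or log2(FPKM + 0.1) (adjusted p = 0.331 and 0.0939), DAAM2 did not pass on log2(FPKM + 1) (0.17) but did on log2(FPKM + 0.1) (0.0258), and APCDD1 did not pass in DESeq2 (adjusted p = 0.0679), with no filter (0.0787) or in limma. The causes were not tested.

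With the replicate block, 7 members were called at 2-fold and 23 passed the adjusted p, and these were the same genes. Deviations of same-numbered libraries correlated at -0.04, -0.026 and -0.024. The sample titles give only a replicate number, and whether same-numbered libraries shared handling was not tested. WNT6, ROR1, SFRP1 and LGR5 had too few counts to be tested.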
